A study of Mus musculus with 4 samples.

Results

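In mouse neural stem cells (NSCs) made to differentiate, 10 genes were followed, all of them encoding transcription factors that act when an oligodendrocyte precursor cell (OPC) stops dividing and starts to make myelin, or in the patterning step before it. They were Gm98 (the table's symbol for Myrf), Nkx2-2, Nkx6-1, Nkx6-2, Zfp488, Zfp536, Tcf7l2, St18, Zeb2 and Yy1. They were taken from the table by symbol and made up 10 of the 22608 genes in the deposited count table. Of these, 9 passed the filter on low counts, which kept 14090 genes, and Nkx6-1 did not.

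Polyadenylated RNA was sequenced from NSCs of the cerebral cortex of embryonic CD-1 mice, which had been bought from a supplier and were grown with EGF and FGF at 20 ng/ml each. All cultures received a lentivirus carrying a short hairpin RNA and were selected with puromycin. They were then turned toward OPCs over 3 days in medium with CNTF, a cytokine, at 20 ng/ml and T3, a thyroid hormone, at 40 ng/ml. The 2 control libraries carried a hairpin against luciferase, an insect enzyme, and the 2 knockdown libraries one against the long non-coding RNA lnc-OPC. The column names gave both knockdown libraries the same hairpin, so effects of lnc-OPC loss and of that hairpin alone cannot be told apart. Its target is shown because it is the only difference in treatment between the groups, and the whole run is in capitals since all of it is the target.
sh-lnc-OPC2 target: GAACGTCACTAACCTTCTGTT

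The labels numbered the 2 libraries of a group as repeats but did not say that they came from separate cultures. The p-values may therefore measure only technical spread. With 2 libraries against 2, an exact two-sided permutation test cannot go below p = 0.333, and the tests given are those of a model fitted across all genes. Reads in genes came to between 46144779 and 50098577 a library. The table had no row named for lnc-OPC, so its depletion could not be measured in these libraries and the grouping follows the labels. The paper reports, from qPCR on puromycin-selected NSCs, that this hairpin and another one lowered lnc-OPC. In bulk RNA, fewer cells of a type and less RNA per cell cannot be told apart. Among markers of the cells a culture could hold, the OPC receptor gene Pdgfra stood at 119 ± 0.155 CPM in the control libraries (SD, n = 2). CPM is a gene's count per 1000000 reads in genes, after scaling of the libraries. The 7 OPC markers summed to 451 and 469 CPM in the control libraries and to 366 and 348 CPM in the knockdown libraries. The microglia genes Cx3cr1, Tmem119, C1qa and C1qb and the endothelial genes Cldn5 and Cdh5 had 0 reads in every library. Other genes of these lists did have reads. Kdr, an endothelial marker, had 3934 and 3420 reads in the controls against 1781 and 1759 after knockdown. P2ry12, a microglia marker, had 25 to 41 reads a library. Csf1r, Aif1, Itgam, Pecam1, Flt1 and Tek had at most 6 reads in any library.

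Oligodendrocytes arise from dividing precursors that leave the cell cycle, pass through a short premyelinating state and then switch on the genes of the myelin sheath. Myrf is a membrane-anchored protein that cuts itself free, enters the nucleus and turns on myelin genes together with Sox10. The other factors act around that step: homeodomain proteins of the Nkx families, zinc finger partners of Olig2 and of histone deacetylases, and the nuclear effectors that read Wnt and BMP signals, which hold differentiation back.

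The promoters of the factors that dropped over 2-fold are shown for Nkx2-2, Nkx6-2 and Zfp488. Each is 300 bases long, ends 50 bases after a start that RefSeq gives and reads 5′ to 3′ on the coding strand. For Nkx6-2 and Zfp488 that start is also the outermost start in GENCODE M21. For Nkx2-2 it lies inside the GENCODE gene, which extends farther upstream, and all positions count from the RefSeq start. The sequences are RefSeq's on GRCm38.p6, a later build than the mm9 on which the authors counted. The tables used held a window for 8 of the 10 factors, and Gm98 and St18 were without an entry. Capitals mark the E-box letters CANNTG, the core bound by Olig2 and its partners, and the letters CTGGCAC or CTGGTAC, the Myrf word known from the rat.
Nkx2-2, chr2:147186353-147186652, minus strand: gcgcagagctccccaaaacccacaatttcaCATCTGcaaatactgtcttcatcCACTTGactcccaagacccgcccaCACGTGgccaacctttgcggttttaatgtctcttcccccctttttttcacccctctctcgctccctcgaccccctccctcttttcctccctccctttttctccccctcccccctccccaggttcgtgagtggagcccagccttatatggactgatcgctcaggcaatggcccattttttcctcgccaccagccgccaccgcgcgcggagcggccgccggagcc
Nkx6-2, chr7:139582748-139583047, minus strand: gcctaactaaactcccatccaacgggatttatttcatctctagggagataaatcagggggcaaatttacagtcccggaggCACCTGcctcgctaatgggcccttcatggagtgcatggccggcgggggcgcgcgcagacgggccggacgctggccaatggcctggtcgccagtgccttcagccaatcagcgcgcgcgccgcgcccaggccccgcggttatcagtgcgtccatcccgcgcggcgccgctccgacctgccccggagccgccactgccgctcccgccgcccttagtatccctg
Zfp488, chr14:33978715-33979014, minus strand: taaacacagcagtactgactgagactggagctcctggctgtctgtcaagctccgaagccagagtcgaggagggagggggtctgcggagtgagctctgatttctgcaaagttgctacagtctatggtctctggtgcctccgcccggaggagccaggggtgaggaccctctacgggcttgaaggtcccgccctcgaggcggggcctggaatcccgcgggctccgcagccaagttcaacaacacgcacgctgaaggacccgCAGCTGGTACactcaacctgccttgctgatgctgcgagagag
Their GC content was 59.7%, 66.7% and 61.3%, in the same order, against a median of 52.7% over all 32851 windows.

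In the Zfp488 window the letters CTGGTAC begin 12 bases after the start and share 3 letters with the E-box CAGCTG, which begins 9 bases after it. The Myrf word stood on either strand in 7.10% of all windows and CAGCTG in 16.3%. Of the 12 windows of the factors, Zfp488's was the only window with either. The Nkx2-2 window held 3 E-boxes before the start, CATCTG at -220, CACTTG at -197 and CACGTG at -173. The middle E-box is also the start of CACTTGA, a word read by Nkx2 proteins, which with CACTTAA stood in 5.34% of all windows. The Nkx6-2 window held CACCTG at -170, the letters bound by Zeb proteins, found in 20.2% of all windows. Any E-box was found in 72.3% of all windows, and in 3 of the 12 windows of the factors. The Sox words AACAAT or ACAAAG stood in windows of Tcf7l2 and Zeb2 and in 27.0% of all windows. The TCF/LEF words CTTTGAT or CTTTGTT stood in a window of Tcf7l2 alone among the factors, at -14, where CTTTGTT shares its letters with a Sox word on the other strand, and in 9.33% of all windows. The Nkx6 words TTAATTAC or TTAATTAA stood in the Zfp536 window at -88 and in 1.25% of all windows. The Yy1 word GCCATNTT stood in 6.05% of all windows and in 0 of the 12. Both strands were searched throughout. These matches describe letters, and binding was not measured.

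Most of the factors were lower in the knockdown. With edgeR's quasi-likelihood test and Benjamini-Hochberg adjustment at 0.05, 8 of the 9 factors tested were lower, 0 were higher, and Yy1 was not called. Over all 14090 genes tested, 23.3% were called lower and 23.5% higher. Gm98, Nkx6-2, St18, Zfp488 and Nkx2-2 were over 2-fold lower, 5 of 9, where 2.26% of all genes tested were. In all 9 factors both knockdown libraries lay below both control libraries, which held for 36.2% of all genes tested. The median log2 change of the factors was -1.05, and that of all genes was 0.00204. The factors were listed with earlier results of these data known, so these shares describe them and are no test of the list.

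**Figure D1:**
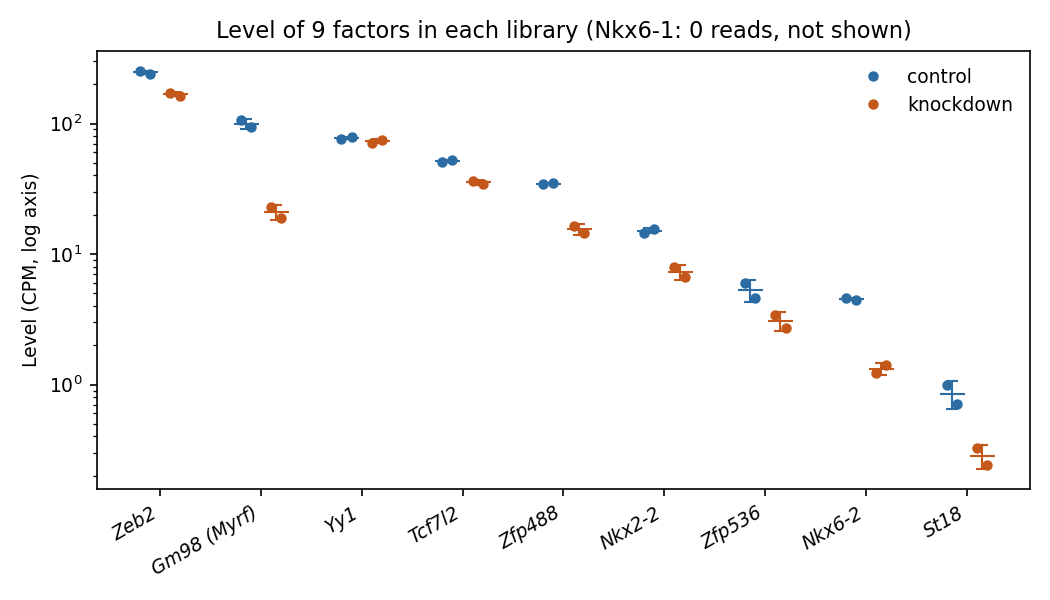
Level of each of the 9 factors with reads in CPM (y axis, log scale) in the 2 control and 2 knockdown libraries (points), with the group mean and SD (bars). The gap between the groups is widest for Gm98, at 99.9 against 20.9 CPM, and narrowest for Yy1, at 77.5 against 73.1 CPM.

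Gm98 (chr19:10208272-10240748 on GRCm38, minus strand) had the largest change of the factors. Its reads numbered 5334 and 4376 in the controls against 1119 and 937 in the knockdown libraries, which is 106 and 93.6 CPM against 22.8 and 18.9 CPM. The groups stood far apart, and each control library was between 4.10 and 5.61 times each knockdown library. The mean level went from 99.9 ± 8.89 to 20.9 ± 2.74 CPM (SD, n = 2), a fitted log2 difference of -2.26 (SE 0.09, 4.79-fold, edgeR adjusted p = 3.53e-07). Only 0.341% of the genes tested had a lower log2 change.

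The genes whose pattern over the 4 libraries was most like that of Gm98 were looked for among 9916 genes that averaged at least 10 CPM. Likeness was the Euclidean distance between log2 CPM values centred on each gene's mean, so it reads mainly the difference between the groups and, less, the gap between the controls. Mbp, which encodes a main protein of compact myelin, lay at a distance of 0.157. Its level was 115 and 92.2 CPM in the controls and 26.1 and 19.8 CPM in the knockdown libraries. In both genes, the first library of each group was the higher. Aim1 lay at 0.331, the tight junction gene Cldn19 at 0.334 and Parvb, which encodes an actin-binding partner of integrin-linked kinase, at 0.362. These distances describe 4 libraries in 2 groups and carry no test.

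Nkx2-2 and Nkx6-2 encode homeodomain proteins. Nkx2-2 sets the timing of differentiation in the mouse and represses Pdgfra, and Nkx6-2 takes part in the build of the paranode, where myelin meets the axon. Nkx2-2 (chr2:147177546-147194243, minus strand) stood at 14.6 and 15.6 CPM in the control libraries and 7.95 and 6.61 CPM in the knockdown libraries. Its groups did not overlap, and its level went from 15.1 ± 0.740 to 7.28 ± 0.949 CPM (SD, n = 2), a fitted log2 difference of -1.05 (SE 0.10, edgeR adjusted p = 1.31e-10). It lay close to the 2-fold line, and without knockdown replicate 2 its log2 change was -0.93, still called but under 2-fold. Pdgfra itself was also lower, at a log2 change of -0.36 (edgeR adjusted p = 1.45e-08).

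Nkx6-2 (chr7:139579376-139582797, minus strand) was a low gene with a large change. It had 230 and 209 reads in the control libraries against 60 and 70 in the knockdown libraries, or 4.58 and 4.47 CPM against 1.22 and 1.42 CPM. Every control library was at least 3.16 times every knockdown library. The mean went from 4.53 ± 0.0761 to 1.32 ± 0.136 CPM (SD, n = 2), a fitted log2 difference of -1.78 (SE 0.20, edgeR adjusted p = 3.01e-09). Inpp5a, on the other strand, shares up to 246 exon bases with Nkx6-2, and the library kit did not mark strand. Inpp5a moved the other way, from 2289 and 2277 reads to 2651 and 2648 (log2 change 0.19, edgeR adjusted p = 0.0014). Nkx2-2 likewise overlaps an antisense gene, Nkx2-2as in the table, whose reads were 4, 8, 1 and 2 in the 2 control and 2 knockdown libraries, against 327 to 733 for Nkx2-2.

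Nkx6-1, which marks ventral progenitors of the spinal cord, had 0 reads in all 4 libraries. A count of 0 allows up to 3 reads, or between 0.0597 and 0.0642 CPM, so its expression was not detectable at this depth and no change could be given. The other Nkx2 and Nkx6 genes gave the same picture. Nkx2-1, Nkx2-3, Nkx2-5, Nkx2-6, Nkx2-9 and Nkx6-3 had 0 reads in every library, and Nkx2-4 fell below the filter. Intervals and limits from counts cover counting error only.

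Zfp488 and Zfp536 encode zinc finger repressors. Zfp488 works with Olig2 to promote oligodendrocyte differentiation, and Zfp536 restrains neuronal differentiation. Zfp488 (chr14:33967070-33978764, minus strand), whose promoter holds the Myrf word printed above, had 34.3 and 34.99 CPM in the control libraries and 16.5 and 14.5 CPM in the knockdown libraries. The groups were well separated, with control over knockdown between 2.08 and 2.41 in every pair. Its mean went from 34.7 ± 0.451 to 15.5 ± 1.40 CPM (SD, n = 2), a fitted log2 difference of -1.16 (SE 0.07, edgeR adjusted p = 9.46e-16).

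Zfp536 (chr7:37472135-37773641, minus strand) changed less and varied more between replicates. It stood at 6.03 and 4.60 CPM in the control libraries and 3.43 and 2.71 CPM in the knockdown libraries. The lower control library was only 1.34 times the higher knockdown library. The mean went from 5.32 ± 1.01 to 3.07 ± 0.507 CPM (SD, n = 2), a fitted log2 difference of -0.80 (SE 0.17, edgeR adjusted p = 0.000175). Without control replicate 1 the change was -0.59 and the edgeR adjusted p 0.0482.

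St18, a zinc finger gene of the Myt family, was the lowest of the factors with reads. Its reads numbered 50 and 33 in the controls against 16 and 12 in the knockdown libraries (chr1:6487231-6860940, plus strand). These give 0.996 CPM with an exact 95% Poisson interval of 0.739 to 1.31 and 0.706 CPM with 0.486 to 0.992 in the controls. In the knockdown they give 0.326 CPM with 0.186 to 0.530 and 0.243 CPM with 0.125 to 0.424. The intervals of control replicate 2 and knockdown replicate 1 overlap. The log2 change was -1.58 (SE 0.44, edgeR adjusted p = 0.0033), and without control replicate 1 it was -1.31 with an edgeR adjusted p of 0.112, which misses the threshold.

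Its relatives did not move together. Myt1, a far more abundant member of the family that is switched on in the oligodendrocyte lineage, went from 230.2 ± 0.841 to 155.4 ± 0.862 CPM (SD, n = 2), a log2 change of -0.57 (edgeR adjusted p = 8.86e-17). Myt1l, the neuronal member, rose from 0.397 ± 0.195 to 1.24 ± 0.280 CPM (SD, n = 2), a log2 change of 1.65 (edgeR adjusted p = 0.000688).

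Tcf7l2 and Zeb2 encode the nuclear readers of the Wnt and BMP pathways. Tcf7l2 is made for a short time in newly formed oligodendrocytes, where it partners beta-catenin or repressors. Zeb2 binds Smad proteins and, in the mouse, induces the inhibitor Smad7. Both fell by less than 2-fold, with small errors. Tcf7l2 (chr19:55741820-55933654, plus strand) had 50.9 and 52.2 CPM in the control libraries and 36.4 and 34.5 CPM in the knockdown libraries, which do not overlap. Its log2 change was -0.54 (SE 0.05, 1.45-fold, edgeR adjusted p = 1.19e-10).

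Zeb2 (chr2:44983632-45117395, minus strand) was the factor with the most reads, at 12643 and 11242 in the controls against 8440 and 8081 in the knockdown libraries. These are 251.7 and 240.6 CPM against 172.1 and 163.4 CPM, again without overlap. Its log2 change was -0.55 (SE 0.03, 1.47-fold, edgeR adjusted p = 9.1e-16). The antisense gene Gm13476 (now Zeb2os), which overlaps it by 181 exon bases, had only 232 to 310 reads and was not called (log2 change -0.07, edgeR adjusted p = 0.733). Zeb1, the close relative of Zeb2, was not called, at 242 ± 1.63 against 247 ± 0.233 CPM (SD, n = 2) and a log2 change of 0.03 (edgeR adjusted p = 0.420). Smad7 went from 6.30 ± 0.408 to 3.16 ± 0.0238 CPM (SD, n = 2), a log2 change of -0.996 (edgeR adjusted p = 1.08e-06).

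Yy1, which recruits the deacetylase Hdac1 to repress Id4 as oligodendrocytes mature, was the factor that was not called. Its levels were 76.2 and 78.7 CPM in the control libraries and 71.2 and 75.0 CPM in the knockdown libraries (chr12:108792973-108820148, plus strand). Both knockdown libraries were below both controls, but the gap between the nearest libraries, a ratio of 1.02, was smaller than the gap within either group. The log2 change was -0.08 (SE 0.04, edgeR adjusted p = 0.1002). With library size alone as the scaling it was -0.12 and was called (edgeR adjusted p = 0.0167). Id4 was lower, at a log2 change of -0.22 (edgeR adjusted p = 1.55e-05). Tcf4, a gene other than Tcf7l2, was also lower, at -0.31 (edgeR adjusted p = 2.70e-11). Hdac1 had few reads and was not called, at 3.71 ± 0.232 against 3.53 ± 0.352 CPM (SD, n = 2, edgeR adjusted p = 0.763).

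**Figure D2:**
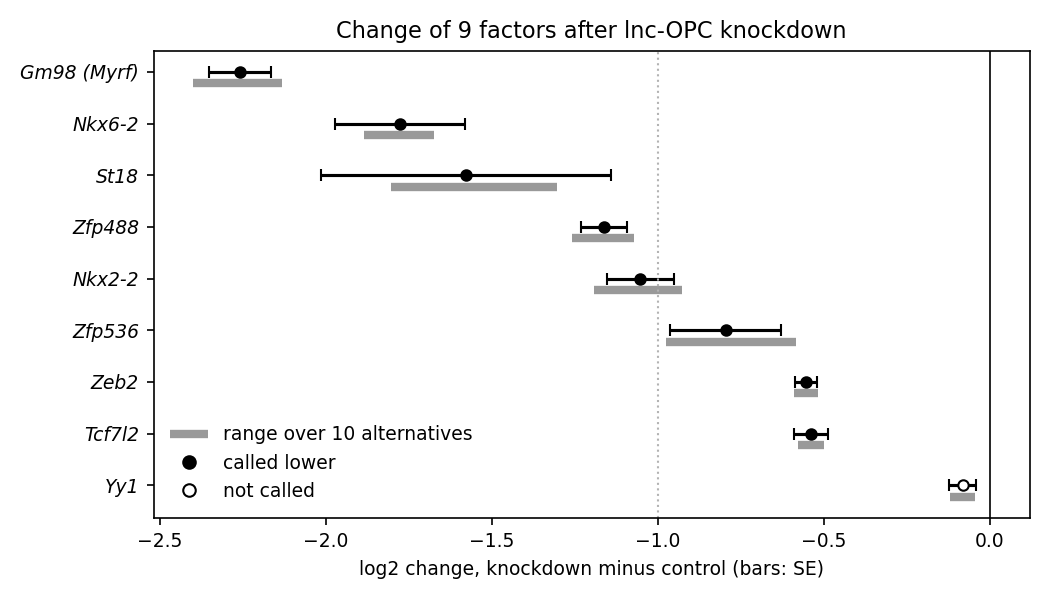
Fitted log2 change of each of the 9 factors, knockdown minus control (x axis), with its SE as black bars and the range over 10 alternative settings as grey bars below. Filled points were called lower by edgeR and the open point, Yy1, was not. The dotted line marks a 2-fold decrease, and the values run from -2.26 for Gm98 to -0.08 for Yy1.

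Levels of different genes were compared as CPM per kilobase of exon, with exon lengths from GENCODE M21. Each length joined the exons of all annotated transcripts of a gene, 19942 bases for Zeb2 and 8562 for Gm98. It can exceed the length of the RNA that was made, so the order between genes depends on it. In the control libraries, Zeb2 at 12.3, Yy1 at 12.1 and Gm98 at 11.7 CPM per kilobase led, and their libraries overlapped, so their order is not resolved. Zfp488 followed at 8.06, Tcf7l2 at 5.87, Nkx2-2 at 5.26, Nkx6-2 at 2.37, Zfp536 at 0.577 and St18 at 0.132 CPM per kilobase, with no overlap between neighbours from Gm98 down. In the knockdown libraries the order was Yy1 at 11.4, Zeb2 at 8.41, Tcf7l2 at 4.04, Zfp488 at 3.60, Nkx2-2 at 2.53 and Gm98 at 2.44 CPM per kilobase. By this measure Gm98 stood level with Zeb2 and Yy1 in the control libraries and overlapped with Nkx2-2 in the knockdown libraries. In CPM without regard to length, Zeb2 stood at 246, Gm98 at 99.9 and Yy1 at 77.5 in the controls. Nkx6-2 at 0.692, Zfp536 at 0.333 and St18 at 0.0440 CPM per kilobase stayed last, again in that order.

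The genes that act with or after these factors were read from lists. Each count below stands beside the shares over all genes tested, 23.3% lower and 23.5% higher. Of 21 myelin genes, 18 were tested, 13 were lower and 0 higher, with a median log2 change of -1.25. Those with the smallest adjusted p were Cldn11, a tight junction gene of myelin (log2 change -0.85, edgeR adjusted p = 1.35e-19), and 2 enzymes that make myelin galactolipids, Gal3st1 (-1.66, edgeR adjusted p = 1.90e-15) and Fa2h (-2.10, edgeR adjusted p = 4.86e-13). The tetraspanin gene Tspan2 changed by -1.45 (edgeR adjusted p = 9.41e-10). Opalin, Trf, Mal and Plekhh1 were among those not called, and the level of Mal was 16.0 CPM in both groups.

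Of 18 genes of newly formed oligodendrocytes, 17 were tested, 13 were lower and 1, Tmem108, was higher, with a median log2 change of -0.45. The zinc transporter gene Tmem163 changed by -1.66 (edgeR adjusted p = 4.74e-11) and the kinesin gene Kif19a by -1.10 (edgeR adjusted p = 8.11e-12). The Myc family gene Mycl1 changed by -0.58 (edgeR adjusted p = 2.86e-12) and the Notch ligand gene Dll1 by -0.45 (edgeR adjusted p = 2.25e-12). In the list of 7 OPC markers, 5 were lower and 0 higher, with a median of -0.56, while Cspg4 and Lhfpl3 were not called (edgeR adjusted p = 0.0628 and 0.809).

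The partner transcription factors moved less than the factors themselves. Of 20 tested, 15 were lower and 3 higher, with a median log2 change of -0.23, and none changed by over 2-fold. Sox10, with which Myrf acts, was the most reduced, from 88.9 ± 0.381 to 48.3 ± 3.75 CPM (SD, n = 2), a log2 change of -0.88 (edgeR adjusted p = 3.92e-17). Its relative Sox8 changed by -0.81 (edgeR adjusted p = 1.15e-21) and Olig2, the partner of Zfp488, by -0.41 (edgeR adjusted p = 1.15e-13). The 3 that rose were Nfia, Nfix and Sox5.

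Chromatin partners mostly fell by small amounts. Of 14 tested, 9 were lower and 1, Ctbp2, was higher, with a median of -0.10. Chd7, a remodeller that acts with Sox10, changed most, by -0.51 (edgeR adjusted p = 2.44e-15), followed by the repressor subunit Rcor1 at -0.41 (edgeR adjusted p = 4.35e-06), the deacetylase Hdac2 at -0.37 (edgeR adjusted p = 3.61e-12) and the acetyltransferase Ep300 at -0.28 (edgeR adjusted p = 2.18e-09).

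Genes of the Wnt pathway, which Tcf7l2 reads, moved both ways. Of 15 tested, 5 were lower, 3 higher and 7 not called, with a median log2 change of 0.00397. Over all genes tested, 23.3% were lower and 23.5% higher, with a median of 0.00204, so the list stood near genes at large. Axin2, a feedback gene that beta-catenin switches on, rose from 43.0 ± 2.06 to 58.3 ± 0.722 CPM (SD, n = 2), a log2 change of 0.44 (edgeR adjusted p = 3.13e-09). The corepressor Tle4 changed by -0.27 (edgeR adjusted p = 1.14e-07) and the kinase Gsk3b by -0.19 (edgeR adjusted p = 1.25e-06). Among the relatives of Tcf7l2, Tcf7l1 was lower at -0.30 (edgeR adjusted p = 3.76e-07), Tcf7 was not called (0.09, edgeR adjusted p = 0.557) and Lef1 fell below the filter.

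Of 14 BMP and Smad genes, 9 were lower and 2 higher, where 23.3% of all genes tested were lower and 23.5% higher. The median of the list was -0.11. Bmpr1b and Smad3 rose, at log2 changes of 0.35 (edgeR adjusted p = 2.18e-07) and 0.33 (edgeR adjusted p = 3.89e-06). The receptor gene Bmpr1a was lower at -0.24 (edgeR adjusted p = 6.38e-08). The largest decreases of the list were those of the inhibitory Smad7, given beside Zeb2, of Smad9, a Smad that receptors activate, at -0.86 (edgeR adjusted p = 0.00271), and of the inhibitory Smad6 at -0.72 (edgeR adjusted p = 0.00233). Of the remaining relatives of the factors, neither Yy2 (-0.14, edgeR adjusted p = 0.444) nor Gm239, the table's symbol for Myrfl (0.91, edgeR adjusted p = 0.291), was called, and Zfp42 had 0 reads in every library.

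**Figure D3:**
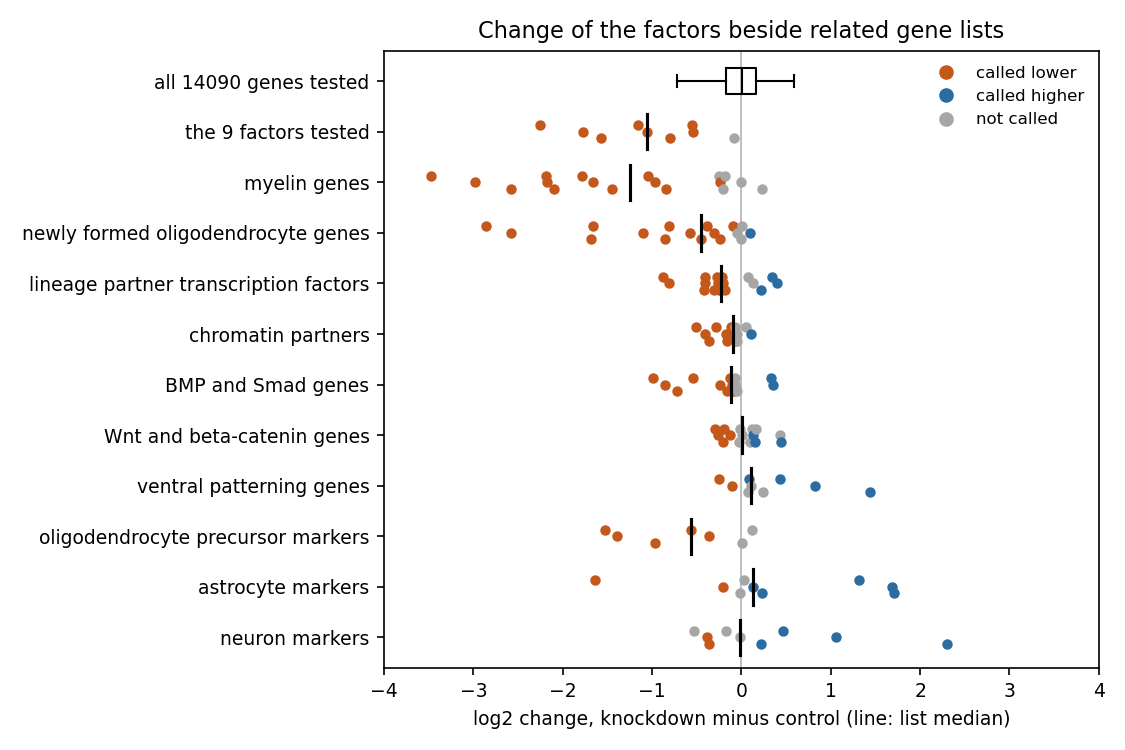
Log2 change, knockdown minus control (x axis), of each tested gene of the factors and of 10 lists, coloured by edgeR's call, with the list median as a black line. The box at the top gives the quartiles of all 14090 genes tested and its whiskers the 5th and 95th percentiles. Among the rows drawn, the medians of the factors (-1.05) and of the myelin genes (-1.25) lie farthest below 0. Of the lists not drawn, the mural markers had a median of -1.40 (4 tested) and the endothelial markers -1.08 (1 tested).

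Markers of other cells also changed, in both directions, and their part in these results was not tested. Over all genes tested, 23.3% were lower and 23.5% higher. The share called lower was 22.2% among both the astrocyte and the neuron markers tested, near that of all genes. The 10 astrocyte markers summed to 4448 and 4510 CPM in the controls against 6862 and 6990 CPM in the knockdown libraries. Of 9 tested, 5 were higher and 2, Aqp4 and S100b, lower. Gfap alone had a mean of 736 CPM in the controls against 2358 CPM in the knockdown libraries. Aldh1l1 and Fgfr3 were not called, and S100b went from a mean of 18.4 to 5.90 CPM. The 6 NSC markers summed to 13520 and 13362 CPM against 16111 and 16427 CPM, with 4 of 6 higher and 1 lower. Most of that sum was Vim, at a mean of 8616 CPM in the controls against 11785 CPM in the knockdown libraries. Nes was lower, at a mean of 1914 against 1520 CPM (edgeR adjusted p = 1.17e-10), and Fabp7 was not called. The sum of the 5 mural markers fell, from 646 and 642 CPM to 311 and 311 CPM. Of 4 tested, 3 were lower, with a median log2 change of -1.40. Most of the sum was Acta2 and Notch3, at means of 346 and 289 CPM in the controls against 134 and 176 CPM in the knockdown libraries. Pdgfrb, also lower, went from a mean of 8.74 to 0.426 CPM. The 10 neuron markers summed to between 1034 and 1067 CPM in the control and 1163 and 1178 CPM in the knockdown libraries. Of 9 tested, 4 were higher and 2, Dcx and Eno2, were lower, with a median log2 change of -0.0138. Most of the sum was Map2 (Mtap2 in the table), at a mean of 817 CPM in the controls against 952 CPM in the knockdown libraries. The 8 microglia markers stayed under 1 CPM in every library, and of the 6 endothelial markers only Kdr was tested (log2 change -1.08). Kdr was not a low gene and went from a mean of 75.8 to 35.9 CPM. The 10 factors summed to 546 and 525 CPM in the controls against 332 and 317 CPM in the knockdown libraries.

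The nearest tested coding gene on each side of each of the 10 factors was also read, leaving out genes that overlap a factor, such as Inpp5a. These neighbours lay between 447 and 3696667 bases away, so the more distant say little of a shared neighbourhood. Of 20 such genes, 5 were lower, 5 higher and 10 not called, close to the 23.3% lower and 23.5% higher of all genes tested. Beside Gm98, Tmem258 (1810006K21Rik in the table), which lies 447 bases away, had a log2 change of 0.16 (edgeR adjusted p = 0.0153), and Dagla, 4488 bases away on the other side, had 0.16 and was not called (edgeR adjusted p = 0.0630). The lowest value among the neighbours was -0.35, for Slc25a29 beside Yy1 (edgeR adjusted p = 0.000818). Every called factor had a lower log2 change than both of its neighbours, whereas Yy1 had a higher log2 change than both of its own. For each called factor, at most 7.49% of the genes tested had a lower log2 change. Its place below 2 other genes was thus nearly fixed beforehand and carries no test of the locus.

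**Figure D4:**
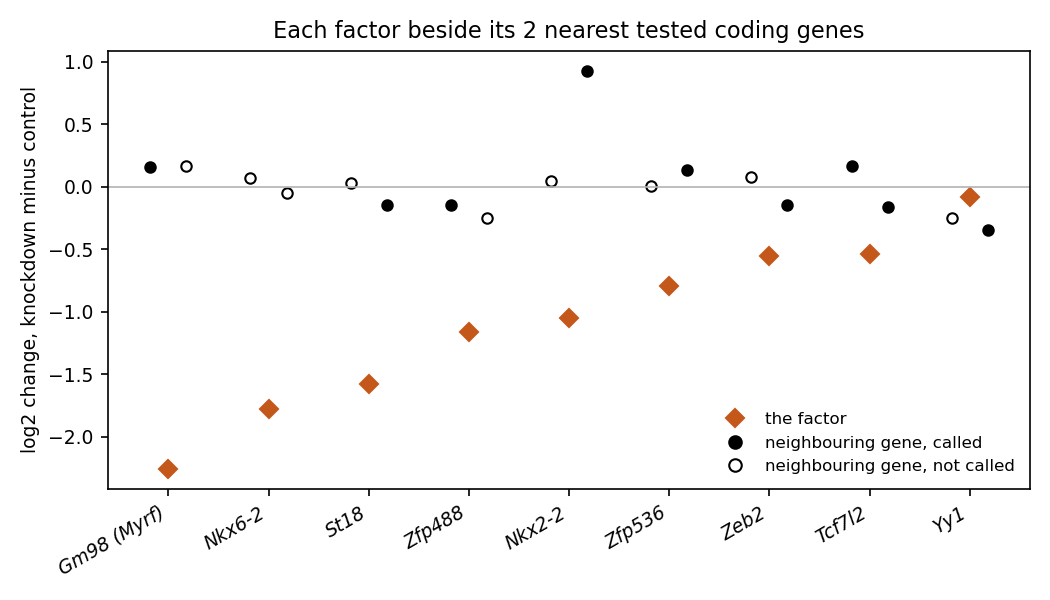
Log2 change, knockdown minus control (y axis), of each of the 9 tested factors (diamonds) and of the nearest tested coding gene on either side that does not overlap it (circles, filled where edgeR called them). The 8 called factors lie below both neighbours, an order nearly fixed by their own low values, and Yy1, at -0.08, lies above both.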

How the data were processed

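The deposited table gave raw read counts for each gene in 4 libraries, made by the authors with HTSeq 0.6.1 and left unnormalized. The build was mm9 per the submitters' processing notes, which list SAMtools 0.1.18, Bowtie 0.12.7, DESeq, Cufflinks and TopHat 1.3.3 as well. Neither the strand setting nor the annotation release was stated (not given in the sources used here), so reads of overlapping genes on opposite strands could not be told apart. Reads outside genes, between 20.1% and 22.2% of those listed, stayed out of library sizes and tests, as did reads with more than 1 alignment, between 10.7% and 11.2%. The other deposited tables held the authors' own means, fold changes and p-values and their term p-values, and were not used.

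Counts went into edgeR 4.0.16 (R 4.3.3) with filterByExpr (minimum count 10, minimum total 15), TMM scaling and robust quasi-likelihood, knockdown against control over all 4 libraries, without covariates. Adjustment was by Benjamini-Hochberg over the 14090 genes kept. A gene was called at an adjusted p under 0.05, and a second rule also required a fitted change over 2-fold. The SE of a log2 change was worked back from its F statistic. Libraries of a group differed by more than sampling noise (chi-square per degree of freedom 4.11 and 3.93, against 66.1 between groups). Each was counted as its own replicate, though this excess does not show that they were separate cultures. The fitted spread common to all genes, the biological coefficient of variation, was 2.95%. Exact 95% Poisson intervals of the nearest control and knockdown libraries overlapped for St18 and Yy1 only, among the 9 tested factors. Limits for a count of 0 took 3 reads.

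Members and lists were chosen with earlier results of these data known. All 10 factors are named, with up to 4 tested genes of each list by smallest adjusted p, every tested relative, genes overlapping a factor, and the 5 genes of at least 10 CPM nearest to Gm98. Some genes that this rule names are not reported here. Genes outside the rule, namely Pdgfra, Mal, Smad6, Smad9, Tmem108, Ctbp2, Nfia, Nfix, Sox5, Pdgfrb, Tmem258, Dagla, Slc25a29 and others that explain a count or stand beside a factor, were named after their values were seen. Loci and exon lengths came from GENCODE M21 (GRCm38) and promoters from RefSeq (GRCm38.p6), joined by symbol or older symbol, never by mm9 coordinates. Alternatives were other scaling, no filter, DESeq2 1.42.0, a replicate block, no robust fit, the 2-fold rule and each library left out.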

Additional observations from a re-analysis of the deposited data

How the results depend on the processing

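Each factor was refitted under 10 alternatives, and all 9 tested factors kept a negative log2 change in every one. Gm98, Nkx2-2, Nkx6-2, Zfp488, Zfp536, Tcf7l2 and Zeb2 were called in all 10. St18 lost its call only without control replicate 1 (log2 change -1.31, adjusted p = 0.112), and its log2 change ran from -1.80 to -1.31. Yy1 was called only with library size alone as the scaling (-0.12, adjusted p = 0.0167), which moved the median of all genes to -0.03 and split the calls into 3964 lower and 2677 higher in place of 3276 and 3309. The log2 change of Gm98 ran from -2.40 to -2.13 and that of Zfp536 from -0.98 to -0.59. With the 2-fold rule, 5 factors were lower in place of 8, and 318 genes were lower and 220 higher. With 1 library left out, which leaves a lone sample assumed to vary like the others, 7 to 8 factors were lower, and between 2435 and 2875 genes were lower and 2455 to 2855 higher. DESeq2 called 8 factors lower, with 2541 genes lower and 2541 higher. With the replicate number as a block, 8 factors were lower, with 3377 genes lower and 3404 higher, and the calls of the 9 tested factors were the same as without it. Same-numbered libraries deviated together only weakly (r = 0.0538 over 14090 genes, which are not independent), and the labels tie a number to no shared source, so the number was not read as a pairing. Depth limits Nkx6-1 and St18.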

Other observations

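Genes of the ventral patterning pathway that lies upstream of Nkx2-2 and Nkx6-1 in the spinal cord were mixed. Of 9 tested, 2 were lower, 4 higher and 3 not called, with a median log2 change of 0.11, where 23.3% of all genes tested were lower and 23.5% higher. Shh, the ventral signal, was low and higher in the knockdown, at 1.40 ± 0.202 against 3.79 ± 0.307 CPM (SD, n = 2), a log2 change of 1.44 (edgeR adjusted p = 5.76e-07). Dbx2, a homeobox gene of intermediate progenitors, rose from 8.53 ± 0.375 to 15.1 ± 1.34 CPM (SD, n = 2), a log2 change of 0.83 (edgeR adjusted p = 7.87e-09). The hedgehog effectors split, with Gli3 at 0.44 (edgeR adjusted p = 1.26e-06) and Gli2 at -0.25 (edgeR adjusted p = 0.000646). Gli1, a target that hedgehog signalling switches on, was not called (0.24, edgeR adjusted p = 0.612). Dbx1 and Foxa2 did not pass the filter.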
